A study of Drosophila melanogaster with 3 samples.

Results

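The small RNAs described here come from ovaries of the Drosophila melanogaster strain A2d and match Penelope. Of the distinct sequences in the lists of all 3 strains of the series (2670 in total), 1800 were listed for A2d, with 3870 reads. The members are all lines of the A2d list, with each distinct sequence and its reads taken once, also where it matched at 2 places. Flies of all strains were kept at 25 degrees and were 3 to 5 days old. Ovarian RNA was cut from a gel at 23 to 29 nt, and 1 library was made per strain. No strain carries a treatment in the labels. The sources used here do not give how Penelope entered A2d or where it is inserted. Strains A1a (1777 reads) and A2h (748 reads) serve only as references. The lists hold no host genes, so the labelled tissue could not be checked against markers.

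piRNAs guide Piwi proteins to transposon transcripts in the fly germline and its supporting cells. In the ping-pong cycle, a piRNA that starts with U directs the cut of a transcript of the opposite strand between the bases that face positions 10 and 11 of the guide. The 5′ end left by that cut becomes a new piRNA, so the partners overlap by 10 nt at their 5′ ends and the new one carries A at base 10. In the other known route, the nuclease Zucchini cuts a long precursor, often in front of a U, and leaves piRNAs head to tail on the same strand. Penelope is a retroelement first described in Drosophila virilis. Sense here means the strand of its open reading frame, and antisense the strand that can pair with its transcript.

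A2d had 1523 sense reads of 764 sequences and 2347 antisense reads of 1036 sequences. Sequences seen a single time made up 71.2% of the sense and 72.2% of the antisense sequences. Positions count from 1 on the authors' Penelope sequence, on which reads of the series reached from 3 to 3399. The element has directly repeated ends at 3 to 618 and 2784 to 3399, and a sequence that matched both was placed at the copy with fewer mismatches or, when equal, in the left copy. Of the A2d sequences, 537 had 2 places, so for them the copy of origin cannot be told apart. The longest reading frame on the sequence rebuilt from the reads ran from 617 to 3190. Reads covered 3309 positions, fewer than the span from 3 to 3399 holds, so a stop at an uncovered base would not be seen.

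The most abundant sequences are shown because few of them set much of the profile of each strand. Capitals mark the first 10 bases, the stretch that faces a ping-pong partner, and T stands for U. For the sense strand, the first sequence below was read 64 times in A2d, the second 37, the third 25 and the fourth 24 times.
sense 1128 to 1152: TACGAGATCAacggaacctagcctt
sense 2398 to 2422: ACCCATAGCCtccggacgaatactc
sense 565 to 592: TTTGTTTTAAcaaacacggacctcgagc
sense 567 to 592: TGTTTTAACAaacacggacctcgagc
A 24 nt form of the first, ending at 1151, was read 32 times. Of the antisense sequences below, the first was read 102 times, the second 73, the third 65, and the last pair 37 times each.
antisense 589 to 615: TTTCAATATTtatttgttggctggctc
antisense 589 to 614: TTCAATATTTatttgttggctggctc
antisense 589 to 613: TCAATATTTAtttgttggctggctc
antisense 491 to 515: CATCGGCAAAccgtcttcagggcac
antisense 1734 to 1759: TATTGGTCTCagtggagttccttcct
The sense RNAs at 565 and 567 each carry 1 mismatch to the element. The 3 leading antisense RNAs differ only by how many of the T bases at their 5′ end they hold. The antisense RNA at 491 to 515 is the exception to U at base 1, since it starts with C, and the sense RNA at 2398 starts with A.

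Sense 5′ ends lay at 433 positions, and the 10 strongest held 453 of the 1523 reads (29.7%). The exact (Clopper-Pearson) 95% binomial interval of that share was 27.5 to 32.1%. Such intervals, given in brackets below, cover counting error only, and reads amplified by PCR without molecular identifiers are not independent molecules. Position 1128, within the reading frame, held 117 reads, or 7.68% of the strand. The next were 2398 with 64 reads and 565 with 51. Then came 567 with 40 reads, 2408 with 36, and 2397 and 2524 with 34 each. The last of the 10 were 572 with 29 reads, and 1414 and 2654 with 24 each. The next position below the list, 1127, held 23, so the list has no clear edge. The strong sense sites thus formed 3 neighbourhoods, around 565 to 572 near the end of the left repeat, at 1128, and from 2397 to 2408, with 3 further single sites. At the other extreme, 245 positions had 1 read.

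Antisense 5′ ends lay at 541 positions, and the 10 strongest held 761 of 2347 reads, 32.4% (30.5 to 34.4%). The first were 615 with 125 reads, 614 with 91, 613 with 89 and 650 with 83. Positions 515 and 647 held 74 reads each, 617 held 72, 1759 held 54, 519 held 52 and 100 held 47. Below these, position 2434 held 37. Of the 10 sites, 6 lay between 613 and 650, at the edge of the left repeat, which ends at 618. Reads with 2 places made up most of the reads at 7 of the 10 antisense and 3 of the 10 sense sites. The reading frame beyond the edge held only 1 of these antisense sites, at 1759, whereas 7 of the 10 sense sites lay in it.

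**Figure D1:**
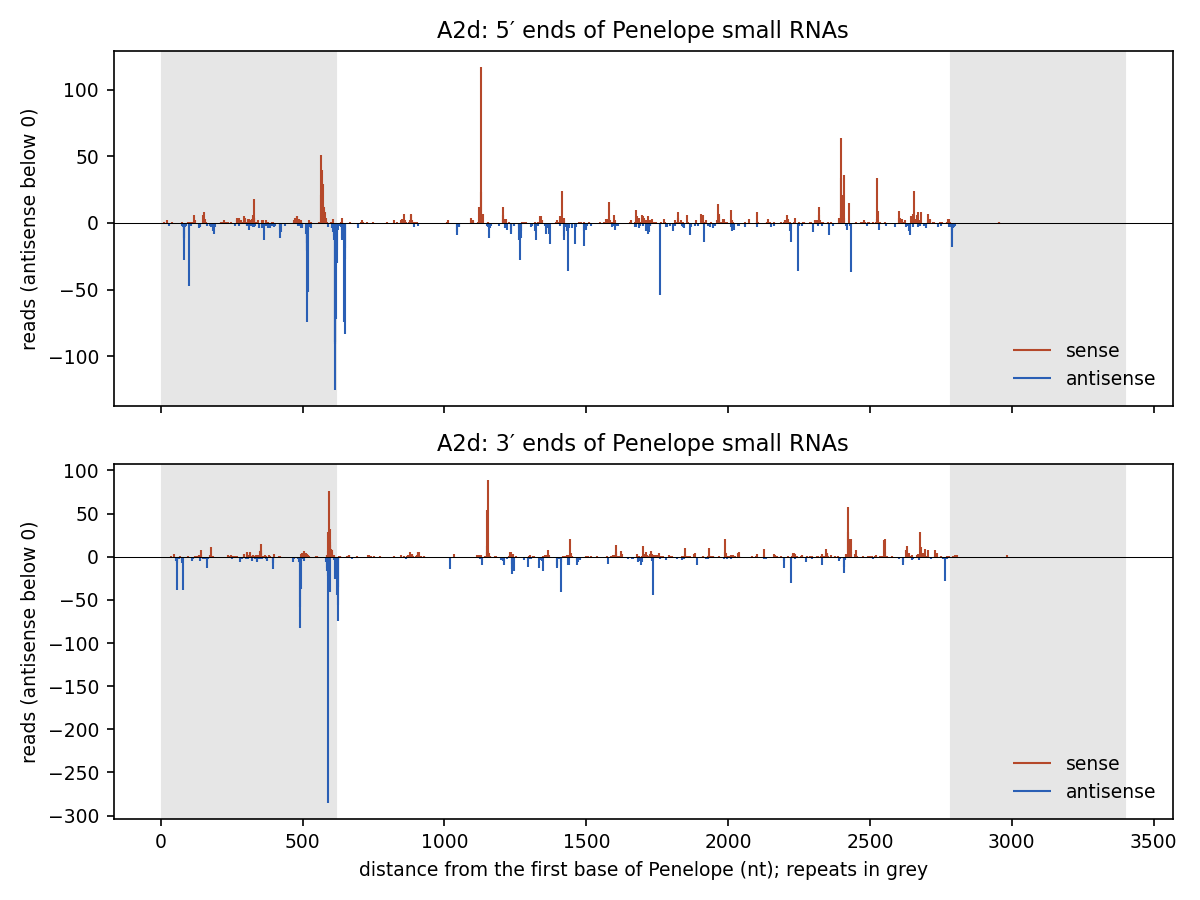
Reads of A2d by the position of their 5′ end (top) and 3′ end (bottom) along Penelope, sense above 0 and antisense below 0. The x axis is the distance from the first base of the element in nt, and grey marks the repeats. The highest sense 5′ line is position 1128 with 117 reads, and the longest antisense 3′ line is position 589 with 285 reads.

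By 3′ ends, the antisense strand was marked by a single position. Position 589 ended 285 antisense reads, 12.1% (10.8 to 13.5%) of the strand and more than 3 times the 82 reads of the next, 491. Next came 623 with 75 reads. Of the 285 reads that ended at 589, 282 also matched the right repeat. They started at 615 (108 reads), 614 (83), 613 (73), 617 (10), 612 (8) and 616 (3), with all 285 counted. Their length therefore followed from where they started, with 27, 26 and 25 nt as the main forms. The 10 strongest antisense 3′ positions held 32.6% (30.7 to 34.5%) of reads. Leaving out the reads that ended at 589, which was decided after the data had been seen, gave 25.1% for 3′ and 26.9% for 5′ positions. The sense strand had no such position. Its strongest 3′ positions were 1152 with 89 reads and 592 with 76, and the 10 strongest held 28.8% (26.5 to 31.1%).

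How sharply the other end was set differed between sites. Of the reads that started at 614, 91.2% ended at a single position, 589, and for 615 and 613 it was 86.4% and 82.0%. Reads from 650 ended at 625 (28 reads), 624 (26) and 623 (23), so that their commonest 3′ end held 33.7%. Reads from 617 were spread over 7 ends, with 594 the commonest at 37.5%. On the sense strand, reads from 1128 ended at 1152 (73 reads) or 1151 (38), whereas 87.5% of those from 1414 ended at 1442. Over all positions with 10 or more reads, the commonest 3′ end of a 5′ position held 55.9% (52.1 to 59.7%) of sense reads and 64.3% (61.6 to 66.8%) of antisense reads. In the reverse direction, the commonest 5′ end of a 3′ position held 61.2% (57.5 to 64.9%) of sense and 57.2% (54.5 to 59.8%) of antisense reads. On the antisense strand this order rested on position 589. Without the reads that end there, left out after the data had been seen, the antisense shares were 58.1% (55.0 to 61.1%) by 5′ position and 62.4% (59.4 to 65.3%) by 3′ position. On the sense strand the intervals overlapped.

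With reads of 2 places put in the left copy, the antisense RNAs at the repeat edge formed consecutive groups. Reads from 650 and 647 had most of their 3′ ends at 622 to 625. At or next to those ends, 621 and 622 started 30 and 20 reads, and the strong sites 613 to 617 followed. All reads from 615 and 613, and 89 of the 91 from 614, also matched the right repeat, unlike those from 650 and 647. That they follow here, and their part in the distances below, thus rests on the rule of placement. Position 595 ended 41 reads, of which 15 started at 621. Across the antisense strand, the distance from a 3′ end to a 5′ end was scored by the smaller of both read counts, summed over positions. A distance of 9 nt scored 325, above the 271 at 1 nt, and its strongest contributor was the 3′ position 623 with 75 reads. Directly adjoining ends, at 1 nt, scored 1.41 times the mean of 193 over 2 to 30 nt, with 4 distances above. Counted as positions, 123 pairs lay at 1 nt against a mean of 108, and 1 distance, 3 nt, had more (127). Sense reads had their highest score at 1 nt, 109 against a mean of 75.8, and also the most position pairs there, 72 against 58.1.

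The base that follows a 3′ end on the element was U more often than bases further on. After antisense reads it was U in 53.2% (51.2 to 55.3%), against 29.2 to 45.3% at the bases 2 to 10 nt beyond the end. Counting each 3′ position once gave 52.5% (48.2 to 56.7%) against 38.8 to 44.4%. Position 589 is itself followed by G. Without its reads the share was 60.6%. For 8 of the 10 strongest antisense 3′ positions the next base was U, and for 2 of the 10 sense ones. After sense reads U followed in 30.9% (28.6 to 33.3%), against 16.0 to 23.7% further on, and in 32.0% (27.6 to 36.6%) of 3′ positions. The lower level on the sense strand stands beside a lower share of U on the plus strand, 21.6% of its covered positions against 42.9% on the minus strand.

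Read length differed little between the strands and more between sites. Sense reads averaged 26.1 ± 1.60 nt (SD over 1523 reads) and antisense reads 25.9 ± 1.48 nt (SD over 2347 reads). Reads of 28 nt were 13.7% (12.0 to 15.5%) of the sense and 8.27% (7.18 to 9.45%) of the antisense strand. Antisense reads were more often 27 nt, at 19.3% (17.8 to 21.0%) against 15.2% (13.5 to 17.1%). Among the 25 sense positions with 10 or more reads, the mean length went from 24.2 to 28.7 nt, with a median of 26.2. Among the 43 antisense positions it went from 23.7 to 28.2 nt, with a median of 25.8. The position accounted for 54.3% of the length variance of these sense reads and 54.4% of that of the antisense reads.

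Among the 10 strongest sense positions, the longest RNAs came from 1414, with 28.7 ± 0.917 nt (SD over 24 reads), and 2524, with 28.6 ± 0.860 nt (SD over 34 reads). The shortest of these 10 came from 1128, with 24.7 ± 0.588 nt (SD over 117 reads), and 2408, with 24.7 ± 0.659 nt (SD over 36 reads). The lowest mean of all 25 was that of 329, at 24.2 ± 0.732 nt (SD over 18 reads). On the antisense strand, reads from 519 averaged 28.2 ± 1.38 nt (SD over 52 reads), with 493 as their commonest 3′ end. Those from the nearby 515 averaged 25.3 ± 0.940 nt (SD over 74 reads), with 491 as the commonest. Those from 100 averaged 24.4 ± 0.705 nt (SD over 47 reads). Length also differed by partner: antisense reads with a sense partner at 10 nt averaged 25.5 ± 1.36 nt (SD over 644 reads), those without 26.04 ± 1.499 nt (SD over 1703 reads). For sense reads the order was the other way, at 26.5 ± 1.81 nt (SD over 322 reads) with a partner and 26.1 ± 1.53 nt (SD over 1201 reads) without. The reads of a site are not independent, so these means rest on few sites.

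**Figure D2:**
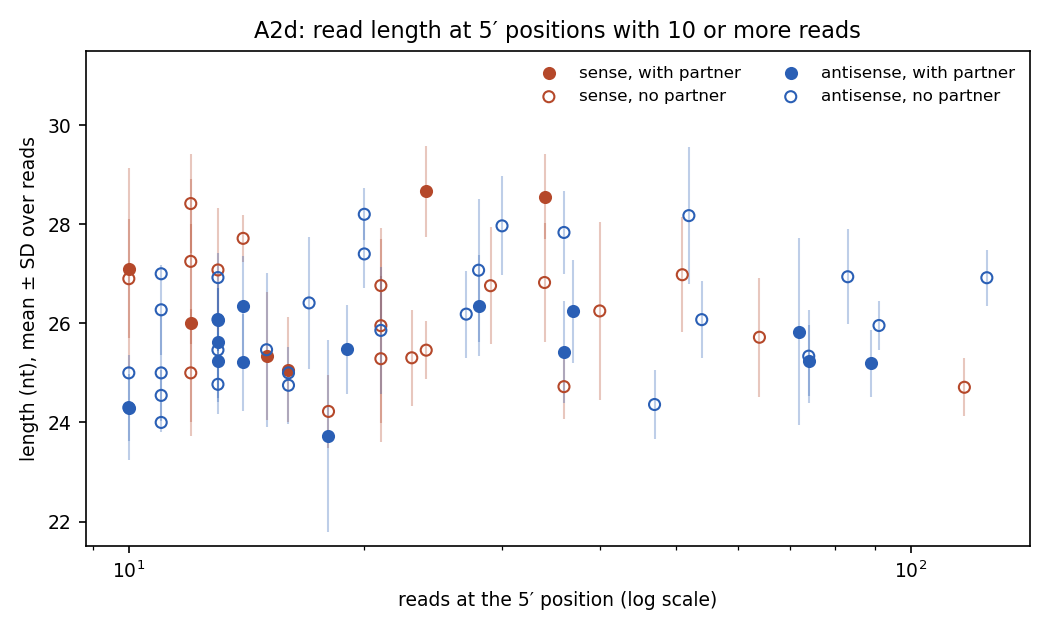
Mean read length with SD over reads (y axis, nt) against reads (x axis, log scale) at each A2d 5′ position with 10 or more reads. Orange marks sense and blue antisense positions, filled where the opposite strand has a read at a 10 nt overlap. The 25 sense means spread from 24.2 to 28.7 nt, and the filled sense points at 24 and 34 reads are 1414 and 2524.

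Sense and antisense 5′ ends overlapping by 10 nt were found at 98 pair sites. They are ranked by the product of the read counts, which adds up to 2617 read pairs. The first 3 pairs are shown by their commonest sequences, with the mutually complementary first 10 bases in capitals.
pair 1, sense 2425 to 2449: CTTCAATTCAaaccacccaaagagt
pair 1, antisense 2408 to 2434: TGAATTGAAGttgagtattcgtccgga
pair 2, sense 1414 to 1442: TCGAGCAATActggacacagtggaacaga
pair 2, antisense 1398 to 1423: TATTGCTCGAtccctactgttttggt
pair 3, sense 638 to 663: TCAATAAATAtcaacggaaggcacgc
pair 3, antisense 623 to 647: TATTTATTGAtggctctggcgacct
Pair 1 joined 15 sense and 37 antisense reads and alone gave 21.2% of the pair products. Pair 2 joined 24 sense and 13 antisense reads, 11.9% of the products. Pair 3 joined 4 sense and 74 antisense reads, 11.3%. The following pairs were 608 with 617 (3 sense and 72 antisense reads), 2524 with 2533 (34 and 5), 2237 with 2246 (4 and 36) and 1906 with 1915 (7 and 14). The last of the 10 strongest were 604 with 613 (1 and 89), 1856 with 1865 (6 and 9) and 2779 with 2788 (3 and 18). Only pairs 1 and 2 thus had more than 10 reads on both strands.

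These 10 pair sites held 76.0% of the products. At the other end, 63 of the 98 sites had a single read on one of the strands, and 19 had 3 or more on both. Sites with more antisense reads (38) and with more sense reads (32) were about as many. The stretch from 2243 to 2783 held 24 of the sites and 33.3% of the products, with each site placed by its sense 5′ end. Of the antisense reads that started in that stretch, 50.0% (43.2 to 56.8%) had a partner, 37 of them at 2434 and 36 at 2246. The sense partner of 2246, at 2237, lies just outside it, so that pair is not among the 24. From 1160 to 1700 the share was 14.6% (11.3 to 18.4%). There the antisense strand held more reads (418 against 220), but the sense strand, which holds the partners, held fewer (189 against 449). Sense 5′ ends lay at 70 against 104 positions. Among sense reads the share with a partner was highest from 1160 to 1700, at 38.6% (31.6 to 46.0%). Among the stretches up to 2783 it was lowest from 619 to 1159, at 6.20% (3.59 to 9.88%). These also held the most and the fewest antisense 5′ positions of those stretches, 127 and 59. Over the whole element, 21.1% of sense reads had an antisense 5′ end at 10 nt. At other overlaps up to 20 nt it was 10.8% (1 nt) to 28.2% (19 nt). For antisense reads it was 27.4%, against 5.54% (1 nt) to 21.2% (16 nt). Whether end density sets the order of the stretches was not tested.

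Most of the strongest sites had no 10 nt partner. The sense position 1128 had no antisense read at 1137, nor did 2398, 565, 567, 2408, 2397, 572 and 2654 have one 9 positions on. A count of 0 allows up to 3 reads. Only 1414 and 2524 of the 10 had a partner. On the antisense strand 613, 617 and 647 had partners of 1, 3 and 4 reads, and the other 7, among them 615, 614 and 650, had none. Over all occupied positions a partner was present for 22.6% (18.8 to 26.9%) of sense and 18.1% (15.0 to 21.6%) of antisense positions. For positions with 10 or more reads these shares were 24% (9.36 to 45.1%) and 32.6% (19.1 to 48.5%). The interval for the strong antisense positions lay around a higher share and did not reach the 18.1% over all antisense positions, of which they are a part. It did overlap the interval of that share. It also treats the 43 positions as independent, although some with a partner, such as 645, 647 and 648, lie side by side. Of these, 645 and 648 faced a single sense read each. A difference is thus uncertain. For the sense strand the interval included the overall share, so at this depth a difference was not detectable there.

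The excess at 10 nt depended on how a pair was weighted. By products it was 3.55 times the average (737) of the remaining overlaps up to 20 nt, of which 19 nt was highest with 1120. By the smaller of both counts it was 191 against a mean of 123, or 1.55 times. Counted as pairs of positions it was 98 against a mean of 91.6, or 1.07 times, and 6 other overlaps of 1 to 20 nt had more. It still exceeded its neighbours, with 85 position pairs at 9 nt and 85 at 11 nt. The number of position pairs rose with the overlap, from 64 at 1 nt to 122 at 20 nt. Overlaps of 21 to 30 nt, compared after seeing the data, reached 2314 products at 27 nt. Of these, 57.6% came from sense 2408 (36 reads) with antisense 2434 (37 reads), which span nearly the same stretch and share the antisense RNAs of pair 1. Against overlaps up to 30 nt the 10 nt products were 2.67 times the mean, and by the smaller count the 27 nt overlap was above (193).

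**Figure D3:**
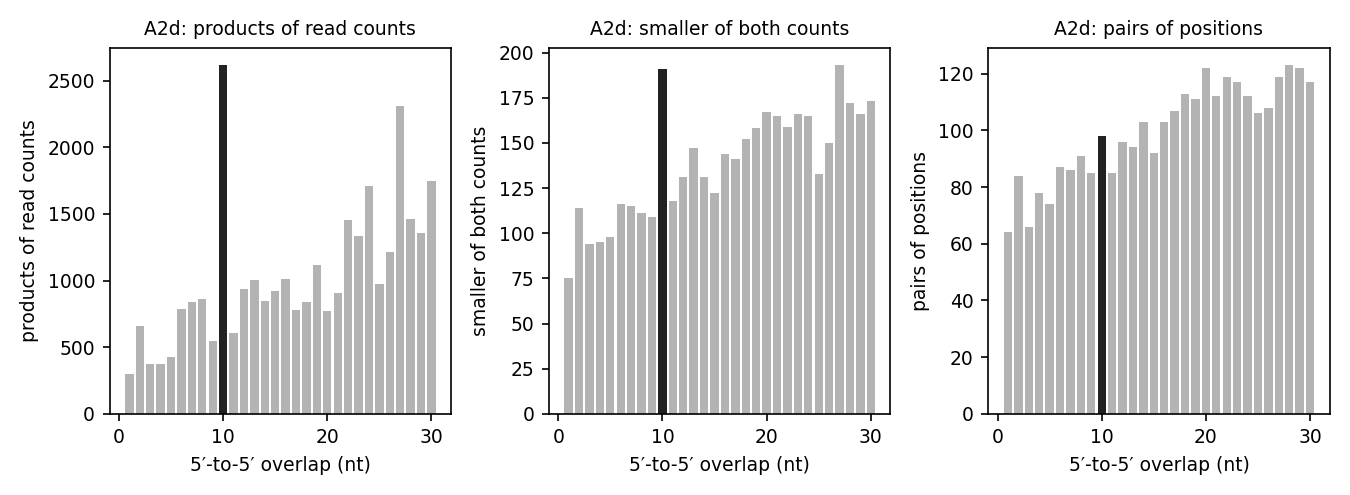
Overlap of sense and antisense 5′ ends in A2d from 1 to 30 nt (x axes), as products of read counts, smaller of both counts and pairs of positions (y axes). The dark bar is 10 nt, at 2617, 191 and 98. It is the highest bar in the first panel only. In the last panel it stands above its direct neighbours (85 each) but below most bars beyond 13 nt.

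Base 1 of the antisense RNA was U at 74 of the 98 pair sites, which held 94.5% of the products, and base 1 of the sense RNA at 36. Both were U at 25 sites with 49.4% of the products, among them pairs 2 and 3. At 13 sites neither was U. Since the sense base 10 faces the antisense base 1 in a pair, A at sense base 10 and U at antisense base 1 are the same observation there. Antisense reads with a partner started with U in 89.9% (87.3 to 92.1%), those without in 76.0% (73.9 to 78.0%). Counting each antisense position once gave 75.5% (65.8 to 83.6%) with and 64.6% (59.9 to 69.0%) without a partner, with intervals that overlap. Positions 613, 647 and 617 held 89, 74 and 72 of the 644 antisense reads with a partner. Sense reads with a partner had A at base 10 in 81.7% (77.0 to 85.7%), those without in 44.6% (41.8 to 47.5%). The latter share is close to the 42.9% A among the covered positions of the plus strand. A partner fixes this base, so the contrast holds nothing beyond U at base 1 of the facing antisense RNA. By position, A stood at base 10 of 75.5% (65.8 to 83.6%) of sense positions with a partner. That interval includes the 66.5% of all antisense positions that start with U. On the antisense strand A stood at base 10 of 51.9% (47.9 to 55.8%) of reads with a partner and 16.6% (14.9 to 18.5%) of those without. By position the shares were 36.7% (27.2 to 47.1%) and 16.9% (13.6 to 20.8%). With a partner this base too is fixed, by base 1 of the facing sense RNA. U stood at base 1 of 36.7% (27.2 to 47.1%) of sense positions with and 35.5% (30.4 to 40.9%) of those without a partner. Of the 334 antisense reads with a partner and A at base 10, 89 came from 613, 72 from 617 and 72 from 647.

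U at base 1 went with the number of reads at a position. Sense 5′ positions with 1 read had U in 31.8% (26.1 to 38.1%) of cases, those with 2 to 9 reads in 36.2% (28.8 to 44.1%), and those with 10 or more in 72.0% (50.6 to 87.9%). Antisense positions had it in 58.5% (52.5 to 64.3%), 74.1% (67.7 to 79.8%) and 81.4% (66.6 to 91.6%). All these shares lay above the U content of the strand, 21.6% and 42.9%. Over all positions, each counted once, U stood at base 1 of 35.8% (31.3 to 40.5%) of sense and 66.5% (62.4 to 70.5%) of antisense positions. For A at base 10 of sense positions the shares were 46.5% (40.2 to 53.0%), 47.2% (39.4 to 55.2%) and 52.0% (31.3 to 72.2%), with intervals that overlap widely. Of the 10 strongest sense sites 8 started with U and 6 had A at base 10, and of the antisense ones 9 and 4. The sense exceptions at base 1 were 2397 and 2398, and the antisense one was 515.

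Along the element, U at base 1 of sense reads was lowest from 3 to 310, at 28.4% (19.3 to 39.0%) of 88 reads, and 70.1% (64.9 to 74.9%) from 311 to 618. From 619 to 1159 it was 70.2% (64.2 to 75.7%), and 117 of these 258 reads started at 1128. It fell to 42.5% (37.9 to 47.3%) from 2243 to 2783, where 2397 and 2398 lie. For antisense reads it was between 73.8% (70.6 to 76.8%), from 311 to 618, and 89.7% (84.6 to 93.5%), from 3 to 310. Of the stretches up to 2783, the first was thus the one with the highest antisense and the lowest sense share of U. A at base 10 of sense reads was highest from 619 to 1159, 73.6% (67.8 to 78.9%), again with 1128, whose base 10 is A.

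The other strains were compared at equal numbers of reads per strand, those of A1a being 762 sense and 1015 antisense reads. With 1 library per strain no test between strains was possible, and ranges for thinned lists hold 95% of 200 draws and cover the drawing of reads only. The 10 strongest sense 5′ positions held 30.1% (28.2 to 32.0%) of reads in thinned A2d and 32.4% in A1a. For antisense 5′ positions the values were 32.5% (30.4 to 34.7%) and 34.7%. Sense reads in thinned A2d lay at 289 (276 to 303) different 5′ positions against 246 in A1a. Antisense reads lay at 336 (319 to 353) against 336. The number of pair sites, 48.4 (40 to 56) against 45, and the 10 nt excess by products, 3.57 (2.81 to 4.47) against 4.17, included the A1a values in their ranges. Antisense reads with a partner started with U in 90.8% (85.5 to 95.3%) of thinned A2d and 77.1% of A1a. Without a partner it was 76.8% (74.1 to 79.4%) and 72.4%, and over all antisense reads 79.7% (77.8 to 81.6%) and 73.3%. In the unthinned lists this difference lay mainly from 311 to 618, at 57.3% (52.1 to 62.2%) in A1a and 73.8% (70.6 to 76.8%) in A2d. In every other stretch the intervals of A1a and A2d overlapped. From 2243 to 2783 the share was the higher one in A1a, 91.2% against 84.5%. Of the 192 antisense reads of A1a with a partner, 23 came from position 498, whose base 1 is C. Of the A2d pair sites, 28 of 98 were also paired in A1a, 6 of the 10 strongest among them, and none was in A2h, which has 45 sense reads.

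Position by position, most of the antisense 5′ positions higher in A2d than in A1a lay at the repeat edge. Positions with at least 10 reads summed over both lists at A1a totals were compared, and 3-fold was taken as the limit. On the antisense strand 10 of 36 positions were past it towards A2d, which is 27.8%, and 6 of 36, or 16.7%, towards A1a. Of the 10, 9 lay between 613 and 650, and the other was 2246. On the sense strand 3 of 30 positions, or 10%, were past it in each direction, those higher in A2d being 329, 1414 and 2403 and those lower 371, 571 and 2705. The antisense positions lower in A2d were 380, 493, 498, 519, 1491 and 1865. The strand totals include positions 613 to 650, which held 30.3% of the A2d and 7.59% of the A1a antisense reads. That lowers the ratio of every other antisense position. Those of 519 (0.304), 1491 and 1865 (0.324 each) were close to the limit. Ratios at totals without that stretch were not computed. Position 498 had 4 reads in A2d, or 1.73 at A1a totals, against 23 in A1a, a ratio of 0.0752 and about as far from equality as 615 with 13.5. Sense position 371 had 2 reads in A2d against 11 in A1a, a ratio of 0.0910 at A1a totals. Position 615 had 125 reads in A2d, which is 54.1 (44 to 65) at A1a totals, against 4 in A1a and 8 in A2h. Position 650 had 83, or 35.9 (27 to 45) at A1a totals, against 3 and 3. Position 617 in their midst was no such case, with 31.1 (23 to 39) against 42 in A1a and none listed in A2h.

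The sense site 1128 was alike in both lists, at 58.5 (48 to 69) in thinned A2d and 60 in A1a. The antisense sites 515 and 519 had 79 and 74 reads in A1a against 32.0 (24 to 40) and 22.5 (16 to 29) in thinned A2d, and 515 was within the 3-fold limit. These A2d values are at whole-strand totals, so the large share at 613 to 650 lowers them too. The ranges of single positions are those of drawing A2d reads without replacement. Of the 10 strongest sense positions of A2d, 7 were among the 10 strongest of A1a. Of the antisense ones 4 were, or 5 if position 100 is counted, which ties for the last place in A1a with 17 reads. The A2d sites had been picked for their A2d reads, which favours higher values there.

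**Figure D4:**
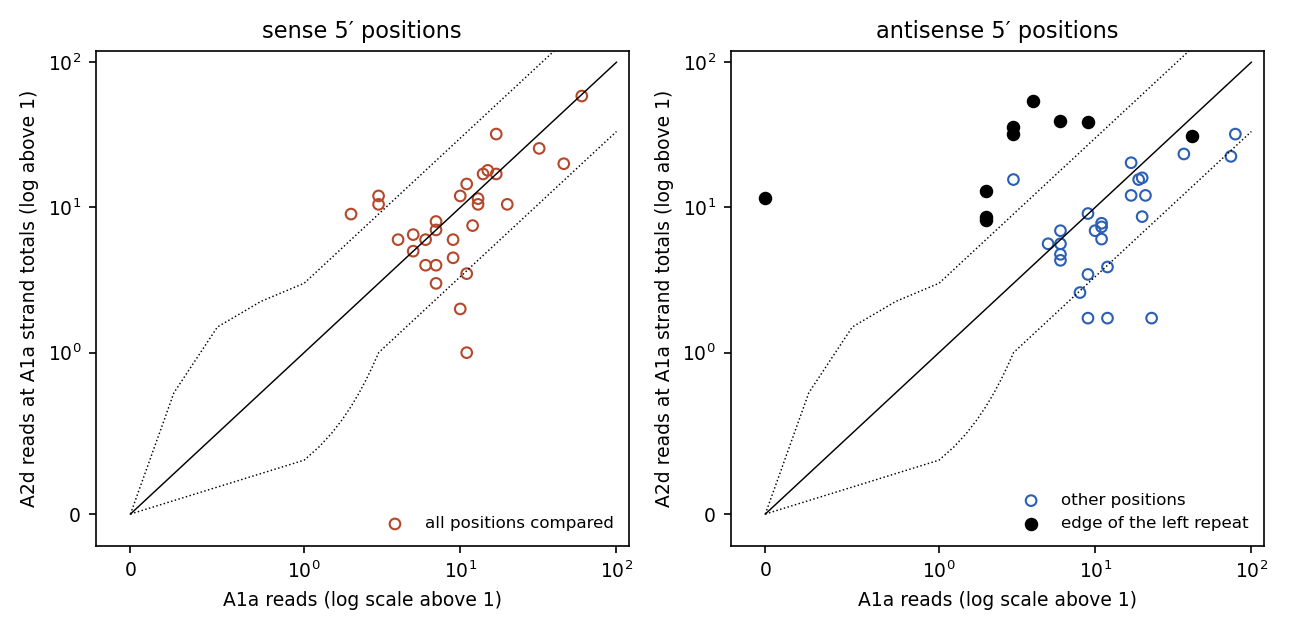
Reads at each 5′ position in A1a (x axes) and in A2d scaled to the A1a strand totals (y axes), for sense (left) and antisense (right) positions with at least 10 reads summed over both. Axes are linear below 1 and logarithmic above, the solid line is equality and the dotted lines are 3-fold. Black points are positions 613 to 650, of which 9 lie above the upper dotted line, and 617 lies near equality.

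Positions 613 to 650, a stretch chosen from these differences and so only described, started 712 antisense reads of A2d. That was 30.3% (28.5 to 32.2%) of the strand, against 77 reads or 7.59% (6.03 to 9.39%) in A1a and 39 reads or 5.55% (3.97 to 7.51%) in A2h. The A2d reads there were of 147 sequences at 30 positions, so they were no single RNA. The most abundant held 102 of the 712 reads. They averaged 26.2 ± 1.32 nt (SD over 712 reads), and 88.6% (86.1 to 90.9%) started with U. Of these reads, 368 also matched the right repeat. Facing them, in the window where 10 nt partners would start, A2d had 11 sense reads, 0.722% (0.361 to 1.29%) of the strand, and A1a had 17, 2.23% (1.30 to 3.55%). The 3′ position 589 ended 12.1% of the antisense reads of A2d, 1.97% (1.21 to 3.03%) in A1a and 1.85% (0.988 to 3.14%) in A2h. Without the whole stretch, the 10 nt excess by products was 3.53 times the mean and the 10 strongest antisense 5′ positions held 25.3% (23.2 to 27.4%) of the reads left.

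**Figure D5:**
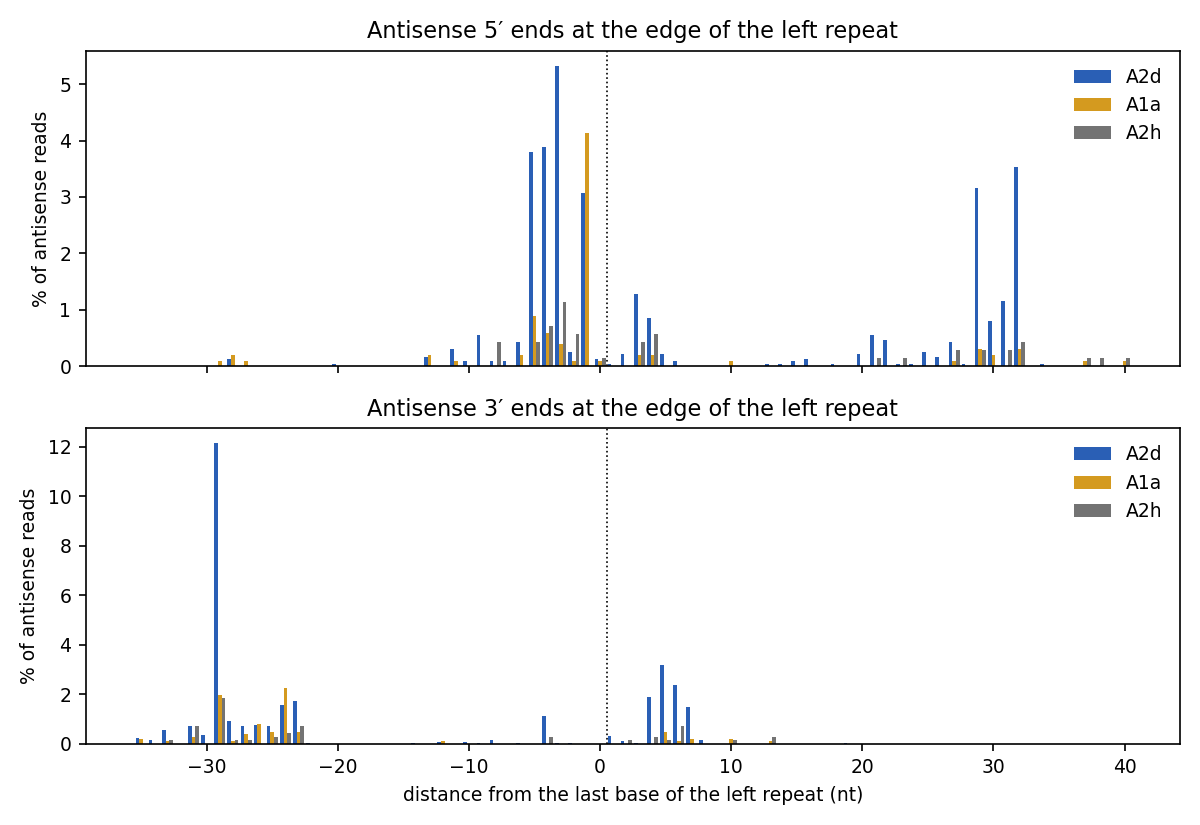
Antisense 5′ ends (top) and 3′ ends (bottom) around the end of the left repeat in A2d, A1a and A2h, as percent of the antisense reads of each list (y axes). The x axis is the distance in nt from the last base of the left repeat, marked by the dotted line. The tall A2d bar in the lower panel, 29 nt inside the repeat, is position 589, at 12.1% against 1.97% in A1a and 1.85% in A2h.

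At the totals of A2h, 45 sense and 703 antisense reads, the antisense strand of thinned A2d was more concentrated than that of A2h. Its 10 strongest 5′ positions held 32.7% (30.01 to 35.7%) against 23.6%, and those of A1a, thinned likewise, 34.95% (33.0 to 36.6%). The strongest antisense 3′ position held 12.1% (10.2 to 14.1%) in thinned A2d, 9.63% (8.53 to 11.1%) in thinned A1a and 3.56% in A2h. High concentration was thus seen in A1a as well. Antisense reads with a partner were 2.82% (0.427 to 6.69%) in thinned A2d, 3.77% (0.711 to 8.40%) in thinned A1a and 0.284% in A2h. U followed the 3′ end of 53.5% (50.3 to 56.3%) of antisense reads in thinned A2d, against 71.5% in A2h and 56.8% (54.7 to 58.7%) in thinned A1a. Antisense 5′ positions shared with A2h made up 29.0% of the A2d and 55.9% of the A2h positions. With A1a, 39.9% of the A2d and 64.3% of the A1a antisense positions were shared, in unthinned lists.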

How the data were processed

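Ovarian small RNAs were listed for 3 strains with a single library each. RNA of 23 to 29 nt, per the labels' protocols, was cut from a gel, ligated to adapters and amplified by PCR. The lists hold 23 to 30 nt. The deposited values are raw read counts per distinct sequence, with strand and 0-based half-open positions on Penelope, per the file headers. The sources used here do not give aligner, trimming or the origin of the Penelope sequence. A sequence with 2 places has a line, with all its reads, for either place (5235 reads over the A2d lines, 3870 counted once). Of the A2d lines, 2 were empty and were not analysed here, so a read missing from the list may be on them. Penelope bases were rebuilt from all lists with mismatches undone.

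Sites are positions of 5′ or 3′ ends. Named were the 10 strongest per strand and end, the 10 strongest pair sites by product of counts and the 5 most abundant sequences per strand. Members, lists and limits were chosen with earlier results of these data known. Regions are the left repeat cut at its middle and the unique part in 4 equal stretches. Thinned lists are 200 draws without replacement. The pair excess, the pair sites and the strongest antisense 5′ positions were tested on simulated lists with planted pairs and sites. The base, length and 3′ end scores were not. Analyses used Python 3.11.15, numpy 2.4.6, pandas 2.3.3, scipy 1.17.1 and matplotlib 3.10.9. The fly gene annotation names no Penelope and was not used further.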

Additional observations from a re-analysis of the deposited data

How the results depend on the processing

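Recomputed under other settings, 78 values lay inside the reported counting intervals (mean lengths within 1 SD, pair shares and the pair excess within 1.5 times), and 39 lay outside. All 14 stayed so with only 23 to 29 nt and with the highest place in place of the lowest. Some values could not move. Leaving out the most abundant sequence, which is antisense, changed no sense value, and the highest place changed no mean length. Inside its wide limit, the share of products at the 10 strongest pair sites, reported as 76.0%, varied. It was 51.8% with each distinct sequence counted as 1, 54.3% with overlaps of 9 to 11 nt and 94.3% with sequences of 2 or more reads. With each distinct sequence counted as 1, the 10 strongest positions held 12.2% (antisense 5′), 12.7% (antisense 3′), 11.3% (sense 5′) and 11.3% (sense 3′) of sequences. The pair excess was then 2.23 times, U after sense 3′ ends 34.3%, U at base 1 of antisense sequences 82.0% with and 72.0% without a partner, and A at base 10 of sense sequences without one 39.6%. With only sequences of 2 or more reads, the corresponding values were 43.5%, 43.5%, 42.8% and 41.8% for the strongest positions, 7.44 times for the excess, 95.4% and 81.2% for U, and 93.2% with and 48.0% without a partner for A. Without the most abundant sequence, the antisense positions held 29.98% (5′) and 29.5% (3′), and U after antisense 3′ ends was 55.7%. With exact matches only, U after sense 3′ ends was 35.1%. With sequences of 1 place only, the strongest positions held 30.2% (antisense 3′), 35.03% (sense 5′) and 32.2% (sense 3′), U followed 64.3% of antisense and 36.4% of sense reads, and U at base 1 of antisense reads without a partner was 78.1%. Taking overlaps of 9 to 11 nt as pairs gave an excess of 1.66 times, U at antisense base 1 in 84.1% and A at sense base 10 in 61.7% of reads with a partner. Added after seeing the data, the smaller of both counts gave an excess of 1.55 times and pairs of positions 1.07 times. Without the reads ending at 589, the antisense positions held 26.9% (5′) and 25.1% (3′), U followed 60.6% of antisense reads, and U at base 1 without a partner was 73.4%. The share of antisense reads at the commonest other end then became 58.1% by 5′ position and 62.4% by 3′ position, which turned their order. Apart from the construction of each setting, the cause was not tested. Depth limits the comparison with A2h most, whose sense list holds 45 reads. No paired analysis was possible because each strain has a single library.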
